A study of Mus musculus with 43 samples.

Results

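The cytosolic ribosome is built from a small and a large subunit, and each carries a set of ribosomal proteins, named Rps and Rpl, around its ribosomal RNA. Their genes are active in nearly every cell, and their messenger RNAs typically begin with a C followed by a run of pyrimidines, the terminal oligopyrimidine tract through which mTOR signalling controls their translation. In neurons ribosomes supply both the cell body and local protein synthesis in dendrites, and the mature messenger RNAs lie in the cytoplasm, so that nuclear RNA samples mostly transcripts that have not yet been exported. The genes described here were all those with the symbol Rpsa, Rplp0, Rplp1, Rplp2 or Rps or Rpl followed by a digit, without names containing -ps and without the Rps6k kinases, that reached 0.5 CPM (read counts scaled to a common library size) in 6 or more libraries of an RNA table. Such a name was carried by 93 of the 53379 genes measured, and 78 of them passed the level, 77 in females and 78 in males. They comprised 31 small subunit and 47 large subunit names. Among the 78 the pattern also caught Rps19bp1, which encodes a binding protein of Rps19, the paralogs Rpl22l1, Rpl7l1 and Rps27l, and Rpl37rt, a copy of Rpl37 by its name, which left 73 ribosomal proteins in the strict sense.

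The mice were wild-type Swiss Webster animals weaned at postnatal day 25 and then kept in environmental enrichment (EE, a larger cage with a wheel, a tube, nesting and changing toys) or standard housing (SH) until the age of 2 months. Nuclei of the frontal cortex were fixed and sorted for NeuN, a neuronal nuclear protein, and gave nuclear RNA-seq or ATAC-seq libraries, the latter counting transposase insertions in open chromatin. RNA came from 6 EE and 6 SH libraries in each sex, and ATAC from 3 EE and 3 SH female and 6 EE and 7 SH male libraries. The labels do not say that libraries are separate animals or whether tissue was pooled, so p-values measure the spread between these samples, and the labels give each sex its own run names, so that sex and run cannot be told apart. Total counts were 10394786 to 15392672 in RNA libraries, 19075368 to 26257066 in female ATAC libraries and 27665194 to 73835546 in male ATAC libraries. Rbfox3, which encodes NeuN, had 5.09 CPM per kb of gene span in female and 4.04 in male SH libraries. Of the 6 astrocyte markers Slc1a2, a glutamate transporter gene, was as high, with 6.07 and 5.03 CPM per kb, and it made up most of the list's sum, while the other 5, Aldh1l1, Aqp4, Gfap, Gja1 and Slc1a3, had 0.117 to 0.387 in females and 0.0884 to 0.233 in males. The 6 vascular markers summed to at most 49.5 CPM in any library, and 5 microglial markers to at most 21.4 CPM.

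Start sites are shown first because a pyrimidine run at the start is what the family is known for. RefSeq start windows on GRCm38.p6, the release of the mm10 build that the tables use, were matched by symbol for 58 of the 78 members. RefSeq starts can differ from the annotated starts used for levels and regions, by 1385 bases for Rps10. The windows below run from 15 bases before to 15 bases after the RefSeq start, and capitals mark the longest run of C and T within 10 bases of it. The first 8 are examples with runs of 9 to 14 bases from small subunit, large subunit and stalk genes (the longest, 17 bases, were those of Rpl35 and Rpl7a), and the last 2 are Rplp0 and Rps4x, 2 members described further on whose windows hold short runs.
Rps6, chr4:86857353-86857382, minus strand: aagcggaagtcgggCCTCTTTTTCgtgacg
Rps15a, chr7:118116133-118116162, minus strand: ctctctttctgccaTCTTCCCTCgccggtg
Rps18, chr17:33955651-33955680, minus strand: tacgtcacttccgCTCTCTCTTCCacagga
Rps10, chr17:27635230-27635259, minus strand: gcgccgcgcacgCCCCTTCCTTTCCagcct
Rpl27a, chr7:109519180-109519209, plus strand: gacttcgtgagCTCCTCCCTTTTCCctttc
Rpl28, chr7:4792950-4792979, plus strand: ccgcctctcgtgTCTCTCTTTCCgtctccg
Rpl38, chr11:114668565-114668594, plus strand: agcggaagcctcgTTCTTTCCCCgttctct
Rplp2, chr7:141447636-141447665, plus strand: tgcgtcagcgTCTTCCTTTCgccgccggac
Rplp0, chr5:115559452-115559481, plus strand: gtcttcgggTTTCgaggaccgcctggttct
Rps4x, chrX:102189377-102189406, minus strand: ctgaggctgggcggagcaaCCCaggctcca

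A run of 8 or more pyrimidines within 10 bases of the start was present in 17 of 58 members (29.3%), against 7.88% of the 11044 RNA-tested genes with a window. The first transcribed base was C in 20 of 58 members (34.5%) and in 14.9% of those genes. Short motifs were counted on both strands over the RefSeq window from 250 bases before to 50 after the start. CCGGAAG, a core of sites for ETS family factors such as GABP, was in 23 of 58 members (39.7%) and in 16.6% of RNA-tested genes. CTTTCC, a stretch common in pyrimidine starts, was in 44.8% and 26.1%, and AAGATGGC, a core for YY1, in 6.90% and 4.40%. GGGCGG, the GC box bound by SP1, was about as frequent in both sets, with 62.1% and 61.4%, and so was TATAAA, the TATA box, with 8.62% and 7.23%. GCGCATGC, a core for NRF1, was in 3.45% and 5.197%. Motif letters may overlap one another, and the matches describe letters in a window only.
The bases before the start of Rps21, which encodes a small subunit protein and had one of the highest nuclear levels per kb in males, are shown as an example of a promoter with a pair of CCGGAAG matches, in capitals. Rpl15 and Rps18 held a pair before their starts as well.
Rps21 upstream, chr2:180257129-180257378, plus strand: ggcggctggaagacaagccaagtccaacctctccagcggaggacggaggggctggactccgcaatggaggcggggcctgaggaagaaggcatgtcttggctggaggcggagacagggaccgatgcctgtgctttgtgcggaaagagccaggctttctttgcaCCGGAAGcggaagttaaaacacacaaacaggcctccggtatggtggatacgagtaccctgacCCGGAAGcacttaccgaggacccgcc

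A further shared feature lies inside the genes. Small nucleolar RNAs (snoRNAs), which guide modification of ribosomal RNA, are often encoded in introns of ribosomal protein genes. They were counted by symbol, as Snora or Snord followed by a digit, and 22 of the 78 members held 31 such genes on their own strand. Any snoRNA genes under other symbols were not counted, so hosts of those may stand among the other members. Of the 72 members tested in either sex 21 did so (29.2%), compared with 0.516% of all 15117 genes tested. Rpl13a held 4 and Rpl23a held 3. None of the 31 snoRNA genes had a count in either RNA table. Each lay wholly inside a gene on the same strand, as did Rpl13, which also had 0 counts. The 0 therefore cannot show whether their RNA was present. Members with a snoRNA gene of such a symbol inside had a median SH level of 0.506 CPM per kb in females and 0.520 in males. The 56 members without one had 0.579 and 0.645.

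The members were short, and their counts were correspondingly few. The gene length given with the counts is the whole span, introns and exons, so levels between genes are given as CPM per kb of gene span. Whether reads in introns were counted is not stated in the sources used here. The median span was 3.29 kb in females, against 29.2 kb over all 14587 genes tested, and the median member had 23.5 counts per female library, against 147 over all tested genes. Summed over the 77 female members, SH libraries held 180 CPM, or 0.0180% of all counts, and the 78 male members held 201 CPM (0.0201%). Per kb of span the members sat near the middle of the tested genes: the median was 0.576 CPM per kb in females and 0.603 in males, against 0.565 and 0.559 over all genes tested. Small and large subunit genes had medians of 0.551 and 0.589 CPM per kb in females and 0.558 and 0.657 in males. The edgeR low-count filter kept 69 members in females and 72 in males. Left out in both sexes were Rps16, Rps29, Rpl13a, Rpl29 and Rpl36a, in females also Rpl10, Rpl36 and Rpl39, and in males also Rps27l.

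Rpl8, a large subunit protein close to the peptidyl transferase centre, had the highest mean in both sexes. Its gene (chr15:76904071-76906318) had CPM of 3.02, 4.43 and 6.53 as the lowest, median and highest of the 6 female SH libraries and 5.15, 6.13 and 6.49 in male SH libraries, which gave 1.98 ± 0.528 and 2.67 ± 0.212 CPM per kb (SD). Rpl4 (chr9:64173375-64178666), another large subunit protein, followed in females with 1.85 ± 0.452 CPM per kb and had 1.94 ± 0.195 in males. Rpl41, which encodes a very small large subunit peptide, had 0.975 ± 0.347 in females and 2.04 ± 0.446 in males. Rps15 and Rps21, both of the small subunit, had 1.11 ± 0.521 and 0.819 ± 0.212 CPM per kb in females and 1.48 ± 0.200 and 1.68 ± 0.317 in males. Rps14, a small subunit protein, had 1.02 ± 0.190 in females. The SDs of neighbours in this order overlap, so the order among them is not resolved.

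At the other end was Rpl18, a large subunit protein (chr7:45715457-45720836), with a median of 0.522 CPM over the female SH libraries and 1.07 CPM over the male ones, or 0.115 ± 0.054 and 0.179 ± 0.058 CPM per kb. Its annotated start in the tables lies 2614 bases from the RefSeq start, so its span, and with it its level per kb, depends on the annotation. Rpl37rt had 0.129 ± 0.053 CPM per kb in females and 0.374 ± 0.052 in males, the highest ratio between the sexes of any member (2.90 on CPM), and its 6 male SH libraries (2.39 to 3.38 CPM) all lay above the 6 female ones (0.387 to 1.55 CPM). Rpl13a, of the large subunit, had 0.144 ± 0.062 and 0.216 ± 0.065 CPM per kb, with 88.6% of its span inside another gene on the same strand. Rpl36a and Rpl39 on the X chromosome and Rps10 completed the lowest female members with 0.228, 0.229 and 0.239 CPM per kb. The annotated start of Rps10 lies 1385 bases from its RefSeq start, so its level per kb depends on the annotation as well. Rps27l, Rps16, Rpl35 and Rpl11 completed the lowest male members with 0.200 to 0.241. Rpl11, of the large subunit, is annotated over 25.2 kb, the longest member.

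**Figure D1:**
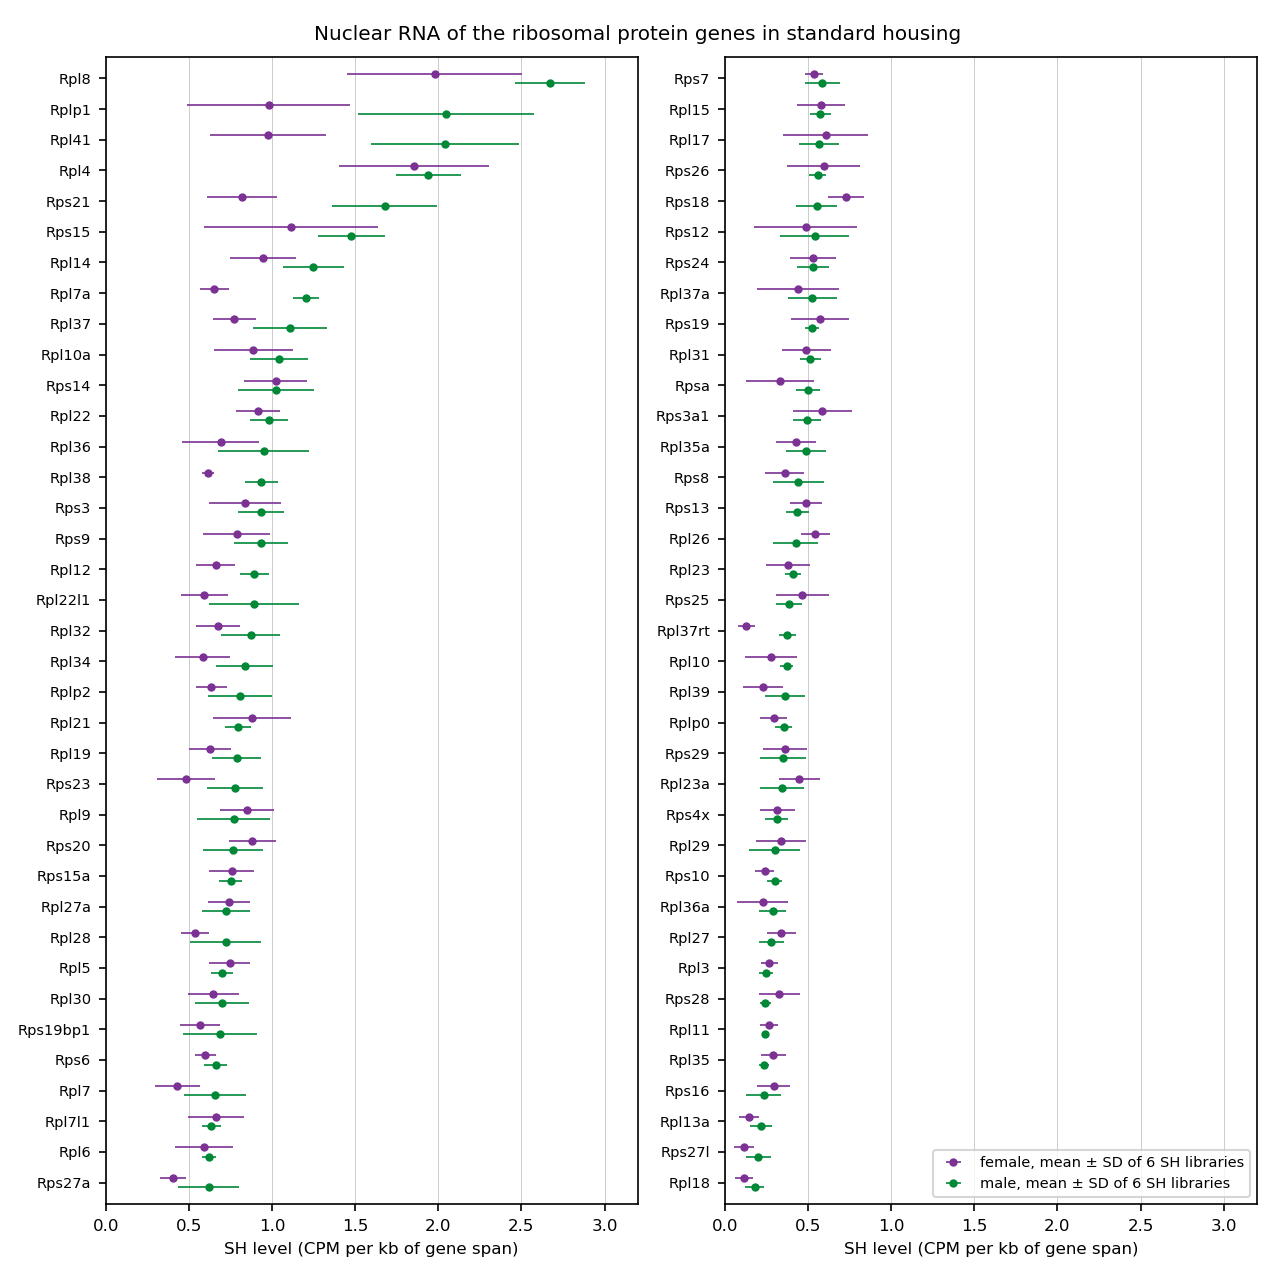
Mean SH level of the members in CPM per kb of gene span, with the SD over 6 libraries, in females (purple) and males (green), ordered by the male level. Rpl8 is highest in both sexes, and the medians over all members are 0.576 CPM per kb in females and 0.603 in males.

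The stalk proteins, which recruit translation factors to the large subunit, differed in level from one another. Rplp0, the stalk base, had 0.293 ± 0.081 CPM per kb in female and 0.352 ± 0.049 in male SH libraries. Its partners stood higher, Rplp1 with 0.979 ± 0.492 and 2.05 ± 0.530, and Rplp2 with 0.635 ± 0.093 and 0.808 ± 0.190. Rpsa, a small subunit protein also known as the laminin receptor, had 0.332 ± 0.205 and 0.501 ± 0.072. Of the paralogs, Rpl22l1 had 0.594 ± 0.142 and 0.892 ± 0.270 CPM per kb beside 0.917 ± 0.134 and 0.984 ± 0.114 for Rpl22, and Rpl7l1 had 0.662 ± 0.170 and 0.634 ± 0.057 beside 0.430 ± 0.135 and 0.657 ± 0.189 for Rpl7. Rps27l had 0.114 ± 0.062 and 0.200 ± 0.076, and Rps19bp1 0.568 ± 0.122 and 0.687 ± 0.220. The paralogs Rpl3l, Rpl10l, Rpl36al, Rpl39l and Rps4l stayed under the level, with 3 to 72 counts over all 24 RNA libraries.

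Among the 15 names under the level were also ribosomal proteins that every cell uses. Rps2, just under it, reached 0.5 CPM in 5 libraries of each sex, and Rps29, just inside, in 6 female and 7 male libraries, with 156 counts in all for either gene. Rpl13 had 0 counts and Rpl24 had 1 count over both tables, and 100% and 98.7% of their spans lie inside another gene on the same strand. The 6 names with at least 80% of the span so covered had 0 to 180 counts (median 0.5), while the 7 covered only by genes of the opposite strand reached 1791 counts. No level is given here for Rpl13 and Rpl24. A further 295 genes in the tables carry ribosomal protein pseudogene symbols, whose near-identical sequence can take or share reads, so the levels of individual members are uncertain to that extent. Of ribosomal proteins outside the naming rule, Rack1, a small subunit scaffold, had 1.34 CPM per kb in female and 1.55 in male SH libraries, and Fau had 0.506 and 0.637.

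Across the 77 members of both sexes, female and male SH levels on the log2 CPM scale had a Pearson r of 0.92, given as a description since genes share libraries and span. The male level was higher for 49 of the 77, with a median ratio of 1.11.

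Promoters were open for nearly all members. In each sex 77 of 78 members had an ATAC region within 1 kb of the annotated start (98.7%), against 83.8% of RNA-tested genes in females and 87.9% in males, and in 76 of them the region lay over the start. The exception was Rpl37rt. There were 98 such regions in females and 78 in males, since 19 members had several regions in females and 1 in males. For 42 members in females and 44 in males the nearest region also lay within 1 kb of another gene's start, so that region is not specific to the member. Accessibility, as CPM per kb of region in SH, had a median of 14.9 over the female members and 13.6 over all RNA-tested genes with a region, and of 7.52 and 7.15 in males. Levels are not compared between the sexes, whose regions were defined separately.

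Rps29, which encodes a small subunit protein, had the most accessible region in both sexes, with 39.0 ± 2.78 CPM per kb in females (n = 3) and 20.0 ± 2.31 in males (n = 7). That region (chr12:69157904-69160029 in females) also holds the start of Rn7s1, a 7SL RNA gene. In females Rpl7, Rplp0 and Rpl15 followed with 31.8, 31.3 and 27.8 CPM per kb, and in males Rpl34, Rps12 and Rpl22l1 with 16.4, 15.2 and 15.2. The least accessible female regions, near Rpl28, Rps16, Rpl37a and Rplp0, had 2.98 to 4.298 CPM per kb and lay 449 to 929 bases from the start, beside a stronger region of the same gene. Among regions over a start the lowest in males were those of Rpl6, Rpl12 and Rpl8, with 3.96, 3.97 and 4.37 CPM per kb, and a region 896 bases from the Rpl18 start had 1.97.

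Nuclear RNA level and promoter accessibility did not run together across members. Spearman's rho between the SH levels per kb was -0.16 over 76 members in females and -0.04 over 77 in males, while over all RNA-tested genes with a region it was 0.16 (12221 genes) and 0.15 (12832 genes). These are descriptions over genes that share libraries, depth and base composition. Of the members with the most RNA per kb, Rpl8 and Rpl4 were at 10.0 and 5.52 CPM per kb of accessibility in females and 4.37 and 4.88 in males, below the members' medians. Rplp1 and Rpl41, which came between them in male RNA, were at 6.76 and 9.54 in males and 17.2 and 20.5 in females, so high RNA did not go with 1 level of accessibility. Rps29, the most accessible member, had 0.362 and 0.350 CPM per kb of RNA. The female rho was -0.06 with EE libraries. Without division of RNA by span rho was -0.31 in females and -0.23 in males, and without division by region width it was -0.03 and 0.16.

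**Figure D2:**
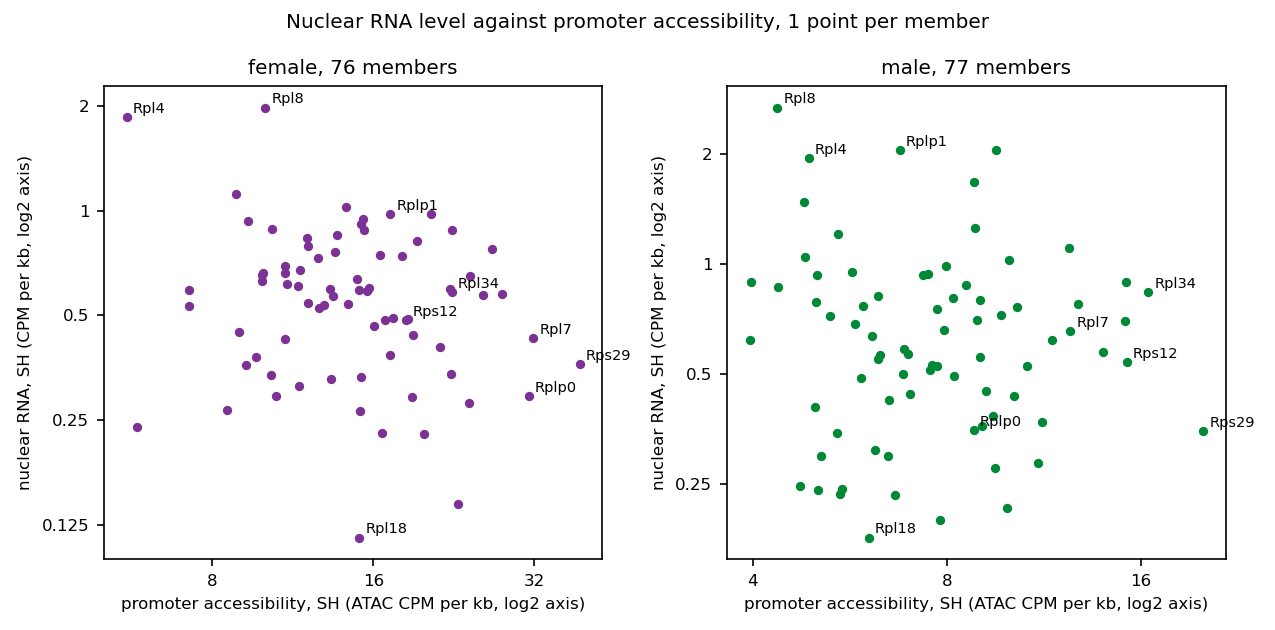
SH nuclear RNA level (CPM per kb of gene span, log2 axis) against SH accessibility of the nearest promoter region (CPM per kb of region, log2 axis), 1 point per member, 76 in females and 77 in males. Rpl8 and Rpl4 lie high with low accessibility and Rps29 lies far right, and no upward trend is seen.

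Housing was compared within each table with edgeR's quasi-likelihood test, adjusted by Benjamini-Hochberg over all features, and positive log2 fold changes mark higher values in EE. In female RNA 0 of 69 members were called at an adjusted p under 0.05, where 0% of all 14587 genes were called, and 3 members (4.35%) had an unadjusted p under 0.05, against 8.66% of all genes. DESeq2 and limma-voom also called 0 members, with 3 and 6 at an unadjusted p under 0.05. Over all 14587 genes these tools called 121 and 4. DESeq2 returned no adjusted p for 66 of the 69 members. Of the members 41 (59.4%) were higher and 28 lower in EE, where 50.6% of all genes were higher. Their median log2 fold change was 0.11 against 0.00 over all genes. In a bulk sample, fewer nuclei of a type and less RNA per nucleus cannot be told apart. Large subunit genes had a median of 0.16 (27 of 41 higher) and small subunit genes 0.01 (14 of 28 higher). The median SE of a member was 0.23, compared with 0.12 over all genes.

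Rps10, which encodes a small subunit protein, had the smallest p in females. Its lowest, median and highest CPM were 1.61, 2.18 and 3.15 in EE and 0.971, 1.48 and 2.02 in SH. All 6 EE libraries lay above the SH median, but the ranges overlapped (log2 fold change 0.65, SE 0.24, adjusted p = 0.41 by edgeR). Rps27a, made as a fusion of ubiquitin with a small subunit protein, had 0.910, 1.49 and 2.14 CPM in EE and 0.729, 0.898 and 1.25 in SH. Its EE values were again all above the SH median with overlapping ranges (0.73, SE 0.27, adjusted p = 0.42 by edgeR). Rps4x, the X-linked copy of a small subunit protein, had 1.34, 2.06 and 3.29 CPM in EE and 0.777, 1.35 and 2.22 in SH (0.61, SE 0.28, adjusted p = 0.55). The next members higher in EE were Rpl22l1 (0.54), Rpl31 (0.43), Rpl3 (0.28), Rpl34 (0.41) and Rpl18 (0.61), all large subunit proteins or a paralog of one, with adjusted p between 0.59 and 0.67.
Lower in EE were Rpl19, of the large subunit, with 1.37, 1.76 and 2.23 CPM in EE and 1.91, 2.33 and 3.24 in SH (-0.42, SE 0.21, adjusted p = 0.60 by edgeR). All 6 EE libraries of Rpl19 lay below the SH median, with overlapping ranges. Rps14 (-0.37), Rps18 (-0.33), Rpl12 (-0.32), Rps25 (-0.40), Rps20 (-0.20) and Rpl35 (-0.29) followed, with adjusted p between 0.60 and 0.84. The stalk genes Rplp0, Rplp1 and Rplp2 had log2 fold changes of 0.21, 0.11 and 0.03 and Rpsa 0.14, each smaller than its SE of 0.22 to 0.34. Rpl7l1 had 0.21 and Rps19bp1 -0.16.

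In male RNA 0 of 72 members were called, where 0.0411% of 14597 genes were, and 0 members had an unadjusted p under 0.05, against 8.02% of all genes. DESeq2 and limma-voom called 0 members as well, with 0 and 1 at an unadjusted p under 0.05. Over all 14597 genes these tools called 49 and 0. DESeq2 gave no adjusted p for any of the 72 members. The direction of the median was opposite to that in females. In EE 26 members (36.1%) were higher and 46 lower, where 47.9% of all genes were higher. The members' median was -0.06 against -0.01 over all genes, with small and large subunit medians of -0.05 and -0.07. Rpl22, an RNA-binding large subunit protein, had the smallest p, with 5.93, 7.01 and 8.44 CPM as the lowest, median and highest in EE and 6.90, 8.08 and 9.82 in SH (-0.21, SE 0.10, adjusted p = 0.64 by edgeR). Of its 6 EE libraries 5 lay below the SH median. Rpl26, of the large subunit, had 0.406, 1.41 and 2.98 CPM in EE and 1.42, 2.46 and 3.07 in SH, a spread wide enough that the SE was 0.31 on a log2 fold change of -0.62 (adjusted p = 0.65 by edgeR).
The stalk genes were lower in EE in males, without passing the test. Rplp1 had 1.66, 2.03 and 2.60 CPM in EE and 1.78, 2.46 and 3.62 in SH (-0.35, SE 0.19, adjusted p = 0.68 by edgeR), and Rplp0 had 1.03, 1.07 and 1.41 in EE and 1.13, 1.52 and 1.71 in SH (-0.37, SE 0.20). All 6 EE libraries of Rplp0 lay below the SH median, with overlapping ranges. Rplp2 had -0.25 (SE 0.18) and Rpsa -0.05 (SE 0.19). Rpl34 (-0.27), Rps3 (-0.20) and Rps24 (-0.21) were the next lower, and each had all 6 EE libraries below the SH median. Among the members with the smallest p of those higher in EE were Rps13 (0.37), Rpl36 (0.38), Rps18 (0.20), Rpl4 (0.10), Rpl3 (0.12) and Rpl5 (0.09), with adjusted p from 0.73 to 0.89. The paralogs Rpl22l1 and Rpl7l1 had -0.12 and 0.05, Rps4x -0.10 and Rps19bp1 -0.16.

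**Figure D3:**
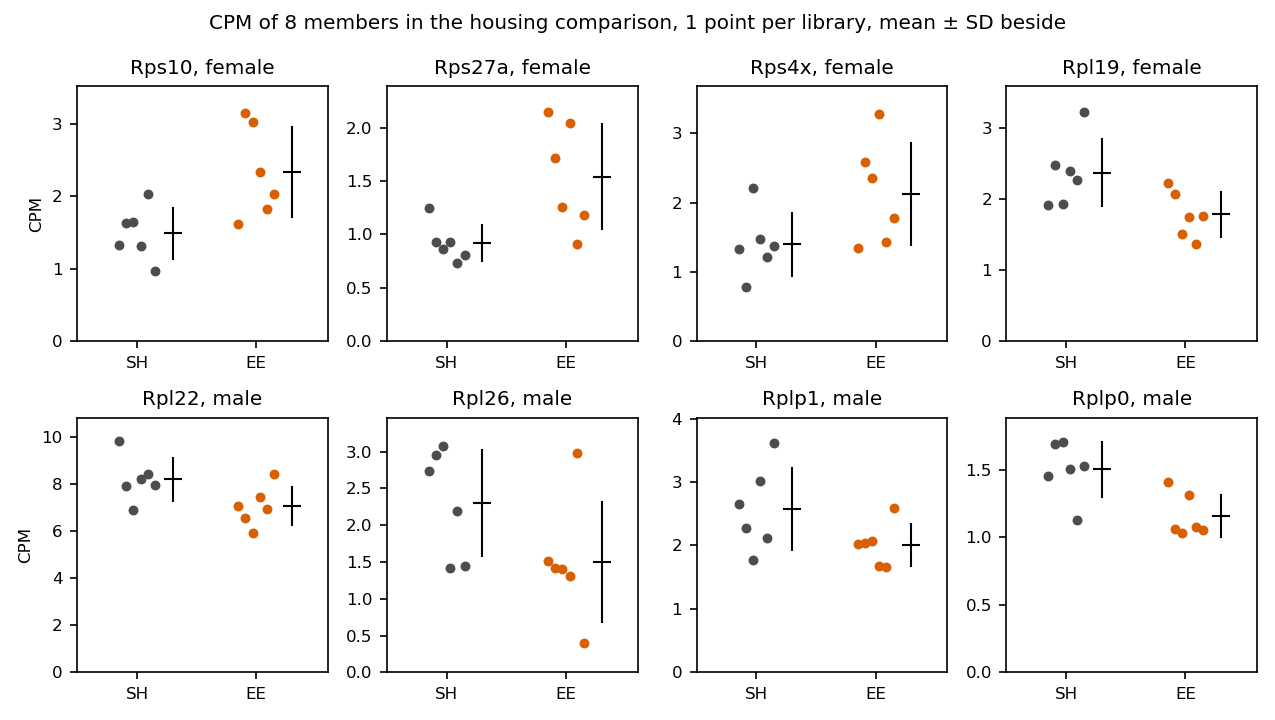
CPM of 4 members in female (top) and 4 in male RNA (bottom), 1 point per library, with the mean ± SD of 6 SH (grey) and 6 EE (orange) libraries beside. The housing groups overlap in every panel, and in the Rps10 and Rps27a panels all EE points lie above the SH median.

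The difference of the housing change between the sexes was tested as an interaction over both RNA tables. Of 75 members 0 were called, where 0.00643% of 15562 genes did, and 5 (6.67%) had an unadjusted p under 0.05 by edgeR, against 8.98% of all genes. DESeq2 returned no adjusted p for any of the 75. The median of female minus male was 0.18, against 0.01 over all genes. It was positive for 53 of 75 members (70.7%), against 52.0% of all genes. The smallest p was at Rpl34, of the large subunit, whose log2 fold change was 0.41 for females but -0.27 for males (female minus male 0.68, SE 0.28, adjusted p = 0.43 by edgeR). Rps27a (difference 0.83, SE 0.36), Rpl18 (1.06, SE 0.48) and Rps10 (0.75, SE 0.34) came next, each higher in EE in females and lower in males, with adjusted p of 0.48 to 0.51. Of 69 members tested in both sexes, 27 were higher in females and lower in males, 11 the reverse, 14 higher in both and 17 lower in both. The same split over all genes is not given here.

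The other genes of the translation machinery gave no call in either sex (0 called per list, by edgeR). Mitochondrial ribosomal protein genes, which serve the separate ribosome of mitochondria, had 39 of 73 higher in EE in females (median 0.03, 4 with an unadjusted p under 0.05) and 27 of 73 in males (-0.06, 2). Their smallest p in females were at Mrpl58 (-0.27) and Mrpl4 (0.36), and in males at Mrps7 (-0.40) and Mrps21 (-0.28). Cytosolic translation factors had 25 of 52 higher in females (median -0.01) and 24 of 52 in males (0.00), led by the ribosome recycling factor Abce1 (-0.24) and Eif4a1 (0.31) in females and by Eef1d (-0.16) and Eif3k (-0.23) in males. Ribosome biogenesis genes had 30 of 66 higher in females (-0.01) and 29 of 66 in males (-0.02). Polr1a, the large subunit of RNA polymerase I, had -0.18 and Nvl -0.64 in females, and Wdr75 0.22 and Utp3 -0.34 in males. The snoRNA host transcripts had 7 of 12 higher in females (0.02) and 2 of 12 in males (-0.10), led by Gas5 (0.20) and Snhg17 (0.22) in females and by Snhg14 (0.07) and Snhg17 (-0.19) in males. Rack1 had 0.10 (SE 0.10) in females and -0.01 (SE 0.11) in males, and Fau 0.16 (SE 0.39) and -0.44 (SE 0.35).

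Summed glial and regional markers overlapped between the housing groups, and no marker was called. The 6 astrocyte markers summed to 630 to 842 CPM in female EE and 728 to 1168 in female SH libraries, and all 6 had a log2 fold change below 0. In males the sums were 699 to 849 CPM in EE and 650 to 740 in SH, and all 6 were above 0. The 6 striatal projection neuron markers, which report tissue beside the cortex, summed to 27.2 to 86.7 CPM in female EE and 19.8 to 60.9 in female SH, and all 6 were higher in EE. In males they summed to 8.09 to 15.2 and 10.4 to 17.3 CPM, and 3 of the 4 tested were lower in EE. The oligodendrocyte lineage markers summed to 132 to 244 CPM in female EE and 120 to 360 in female SH, and to 93.2 to 235 and 111 to 143 in males. Of 8 tested, 7 were lower in EE in females and 2 in males. Of 4 microglial markers tested, 4 were lower in EE in females and 2 in males. Female SH replicate 2 had the highest astrocyte and oligodendrocyte sums of any library, and without it the members' median was 0.11 and 50 of 70 were higher in EE. The part of these other cells in the members' medians was not tested.

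The members were also followed library by library. For each library the median deviation of the tested members from their own means over the table was taken on a log2 scale. In females it ran from 0.00 to 0.19 in EE and from -0.13 to 0.06 in SH, and in males from -0.12 to 0.07 and from -0.06 to 0.14, so the housing groups overlapped in both. Other tested genes with a span of at most 5 kb, 1314 in females and 1301 in males, had group means that lay in the same direction as those of the members. Their median deviation averaged 0.06 in female EE and 0.00 in female SH, beside 0.07 and -0.02 for the members, and -0.01 in male EE and 0.05 in male SH, beside -0.03 and 0.06. SH replicate 1 was the lowest female library of both sets. Whether the members differ from other short genes was not tested. The female median rested partly on single libraries: it was 0.05 without EE replicate 3 and 0.06 without EE replicate 2. In males it was -0.04 without EE replicate 5 and -0.10 without EE replicate 4.

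**Figure D4:**
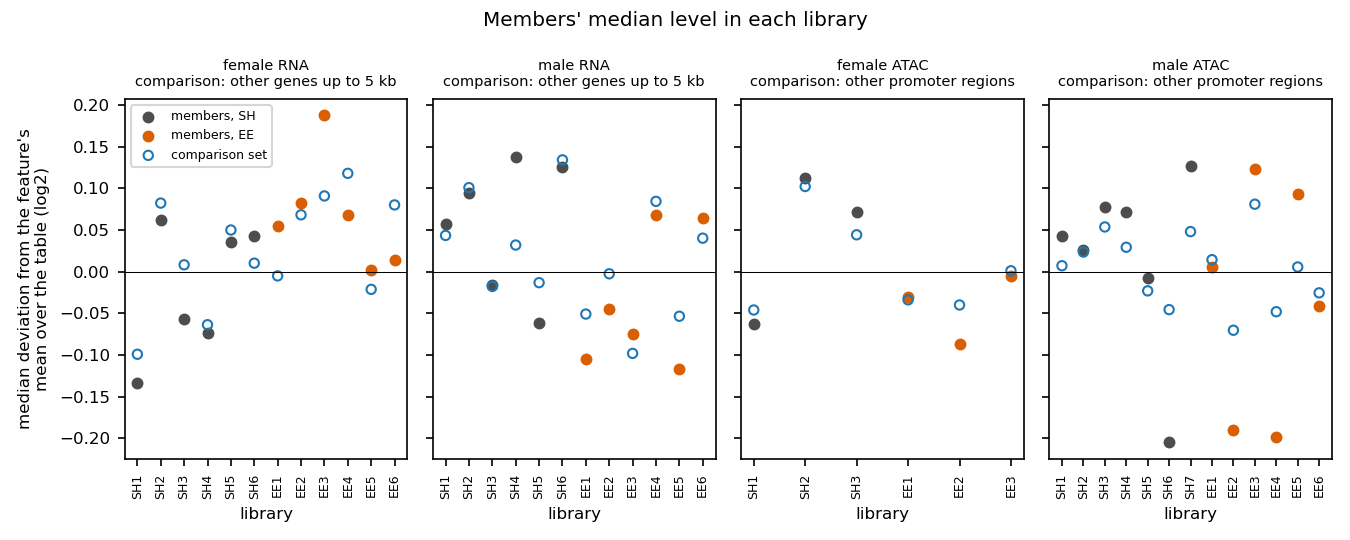
Median log2 deviation of the members from their own means in every library (filled, SH grey and EE orange) and of a comparison set (open blue: other genes up to 5 kb for RNA, other promoter regions for ATAC). SH and EE overlap in every panel, and male ATAC libraries EE2, EE4 and SH6 lie lowest, where the other promoter regions are also below 0.

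Promoter regions gave no call either. In female ATAC 0 of 98 regions within 1 kb of a member's start were called by edgeR, where 0.0473% of 164926 regions were, and 4 (4.08%) had an unadjusted p under 0.05, against 5.41% of all promoter regions and 8.01% of all regions. In male ATAC 0 of 78 were called, where 0% of 192834 regions were, and 0 had an unadjusted p under 0.05, against 2.96% of all promoter regions. DESeq2 called 0 in both, with 3 and 1 at an unadjusted p under 0.05. In both sexes most regions were slightly less accessible in EE: 81 of 98 in females (82.7%, median -0.08) and 63 of 78 in males (80.8%, median -0.04). Over all promoter regions 65.5% were lower in females (median -0.06) and 62.6% in males (-0.02), while of regions farther than 1 kb from any start 49.6% and 48.8% were. Promoter regions in general thus lay in the same direction, and whether the members differ from them was not tested.

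The region with the smallest p in females was over the start of Rps3 (chr7:99482811-99484358), a small subunit protein that also acts in DNA repair, and it holds the start of Snord15a as well. It had 15.6, 13.2 and 15.98 CPM in the 3 EE libraries and 18.5, 16.7 and 20.5 in the 3 SH libraries, which did not overlap (-0.32, SE 0.13, adjusted p = 0.46 by edgeR). The Rpl27 region (chr11:101442078-101443003), of the large subunit, had 17.7, 15.8 and 17.8 CPM in EE and 19.3, 21.1 and 21.6 in SH, again without overlap (-0.27, SE 0.12, adjusted p = 0.54 by edgeR). Regions picked for the smallest p from 3 against 3 libraries tend to separate in this way. The share of all regions that separate is not given here. The Rpl17 region had 15.8, 15.9 and 17.04 in EE and 18.6, 19.5 and 21.1 in SH (-0.28), the Rps14 region -0.21 and the Rps9 region -0.28. Among regions higher in EE, those of Rpl7l1 (0.21), Rpl27a (0.12), Rpl6 (0.08), Rps4x (0.06) and the region 766 bases from the start of Rps15a (0.10) had the smallest p, with adjusted p of at least 0.74.
In males the smallest p were at Rpl31 (-0.11), Rpl6 (-0.26), Rps23 (-0.12), Rpl5 (-0.14) and Rpl17 (-0.08) among regions lower in EE. Those of the Rpl31 region (chr1:39365072-39370356) were 35.2, 37.1 and 38.03 CPM as the lowest, median and highest in EE and 37.5, 39.9 and 41.5 in SH, with overlap. The smallest p among regions higher in EE were at Rpl11 (0.11), Rpl28 (0.15), Rps9 (0.11) and Rps29 (0.05), and every male adjusted p was 1.00. The Rpl6 region was higher in EE in females and lower in males, but its female value was -0.070 without EE replicate 1. The Rps9 region was lower in females and higher in males, and neither difference was tested.
By library, the members' promoter regions ranged from -0.09 to -0.01 in female EE and from -0.06 to 0.11 in female SH. In males they ranged from -0.20 to 0.12 in EE and from -0.21 to 0.13 in SH. Male EE replicates 2 and 4 and SH replicate 6 had the lowest members' medians (-0.19, -0.20 and -0.21), and the other promoter regions there were at -0.07, -0.05 and -0.05. Without SH replicate 6 the male median log2 fold change was -0.08, without EE replicate 3 it was -0.09 and without EE replicate 2 it was -0.02, and 0 regions were called each time. In females it was -0.13 without SH replicate 1 and -0.05 without SH replicate 2.

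**Figure D5:**
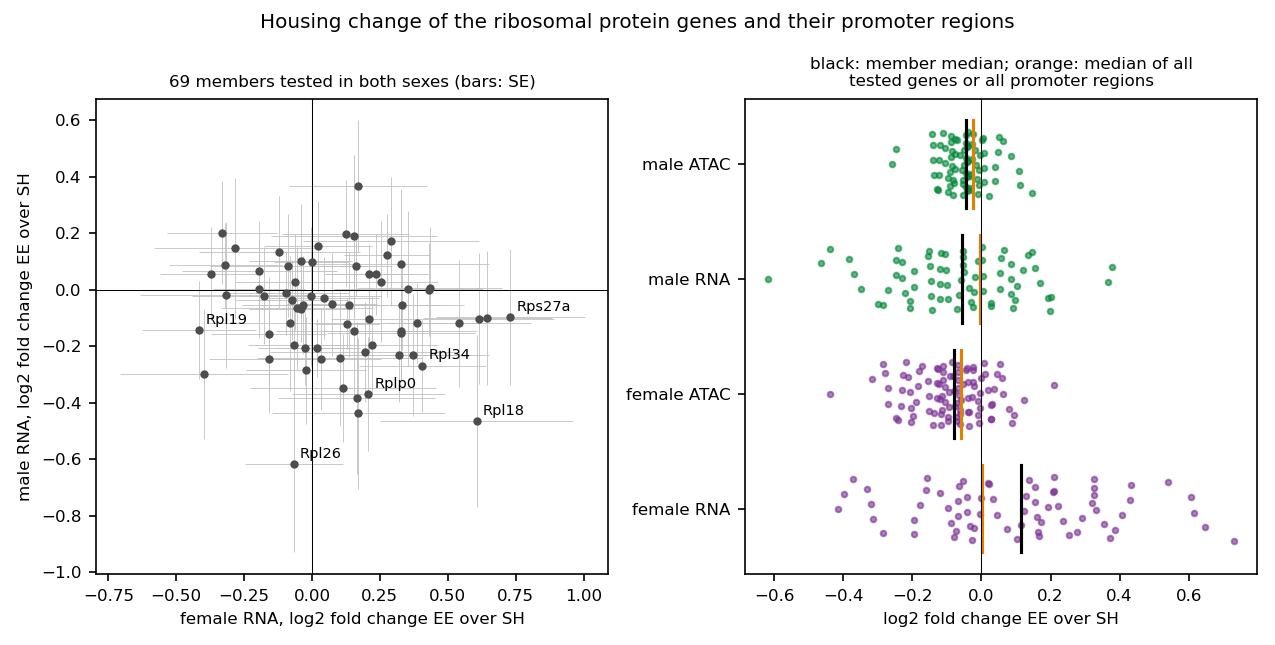
Left, log2 fold change (EE over SH) of 69 members in female against male RNA, with SE bars. Right, log2 fold change of every member gene or region by table, with the members' median (black) and the median over all tested genes or all promoter regions (orange): the female RNA median of members is 0.11, the male RNA median -0.06 and both ATAC medians lie slightly below 0.

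The counts set what could be resolved. The 95% interval of a member's log2 fold change was taken from its SE and not adjusted for the number of members. It ran from 0.18 to 1.12 for Rps10 in females and from -0.57 to 0.36 in males. Rps10 was the member with the smallest female p, and its adjusted p was 0.41 by edgeR, so this interval does not mark a resolved change. For the stalk base Rplp0 it was -0.35 to 0.76 in females and -0.77 to 0.03 in males. The median SE of a single member was 0.23 in females and 0.18 in males. It describes single genes and not the spread of the members' median log2 fold changes in RNA, 0.11 and -0.06. By library, the members' median deviation averaged 0.07 (SD 0.07) in female EE and -0.02 (SD 0.08) in female SH. In males it averaged -0.03 (SD 0.08) in EE and 0.06 (SD 0.08) in SH, and these differences were not tested.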

How the data were processed

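Nuclear RNA-seq and ATAC-seq counts were analysed from 4 deposited tables, 1 per assay and sex. The values are whole-number counts per gene or region that the authors made; the submitters' processing notes name STAR 2.5.4, SAMtools 1.3.1, bedtools, MACS2 2.1.1, DiffBind 3.2.2, edgeR, DESeq2 1.16.1 and mm10. How reads were counted, with which strand setting, and how regions were merged is not given in the sources used here. Without a stated strand setting, reads of a gene and its antisense partner may not be told apart. In the male RNA file the header lacks a name for the gene column, and its names were shifted by 1 column accordingly.

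The members, gene lists and tests were chosen with earlier results of these data known. Symbols were paired for 53274 of 53379 gene IDs, and gene starts and spans are those of the RNA table. Each table was fitted whole with edgeR 4.0.16 (filterByExpr, TMM scaling, robust quasi-likelihood F test, Benjamini-Hochberg over all features, threshold 0.05) in R 4.3.3, with housing as the only term, and the interaction over both RNA tables. SE is the absolute log2 fold change over the root of F. Levels are TMM-scaled CPM, per kb of gene span or region width. The script was tested on simulated counts. Totals per library limit precision as given in the report. Named in the text were the members with the smallest p in each direction (8 per RNA table, 5 per ATAC table), those with the highest and lowest SH level (6 and 4), the stalk genes with Rpsa, and paralogs with Rps19bp1. Others named were chosen after their values were seen. Alternatives were DESeq2 1.42.0, limma-voom 3.58.1, total-count scaling, other filters and distances, a replicate block and leaving out each library. Summaries used Python 3.11.15, pandas 2.3.3 and numpy 2.4.6. Some genes and regions that this rule picks are not reported here.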

Additional observations from a re-analysis of the deposited data

Results flagged for a closer look

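In 3 of 80 groups of 4 to 10 libraries the highest or lowest library stood apart from the rest by Dixon's criterion (3.75%), and chance alone flags about 1 group in 20. The members' promoter regions in male ATAC SH replicate 6 had a median deviation of -0.21 (log2), while the next lowest of the 7 SH libraries was at -0.01 and the highest at 0.13. In the same library the Rps29 region had 49.8 CPM, the next highest SH library 41.3 and the lowest 35.1, so this region was high where the members' median was low. Rpl22l1 had 2.85 CPM in female EE replicate 4, the next EE library 1.82 and the lowest 1.22, and leaving out single libraries gave log2 fold changes from 0.34 to 0.63.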

How the results depend on the processing

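No member gene or region was called under any alternative run. The number called over all genes did depend on the run. In female RNA it was 0 in the main run and 95 of 14587 with a replicate block. It was 168 of 33545 without the low-count filter, and from 0 to 85 when single libraries were left out. In male RNA it was 6 in the main run, 3 of 14597 with the block and 136 of 36188 without the filter. Leaving out single libraries moved the members' median log2 fold change from 0.05 to 0.13 in female RNA, -0.10 to -0.04 in male RNA, -0.13 to -0.05 in female ATAC and -0.09 to -0.02 in male ATAC. With a replicate block the medians were 0.13, -0.07, -0.08 and -0.03, again with 0 members called. Correlations of the deviations of same-numbered libraries were 0.04 to 0.31 in female RNA, where all 6 were positive and 3 were above 0.1, -0.03 to 0.23 in male RNA, -0.07 to 0.07 in female ATAC and -0.10 to 0.17 in male ATAC. In no table did every EE library correlate best with the SH library of its number. Since no table had every pair above 0.1 and the labels name no shared batch, the numbers were not taken as pairs. These are the replicate numbers of the sample titles. In male RNA the column names carry other numbers, which differ between EE and SH for most replicates. Neither the correlations nor the block could therefore show pairing by the male column names. In female RNA the column names of each replicate carry the same number in EE and SH. The labels do not say what these numbers stand for, so pairing in female RNA is not settled. Spearman's rho between RNA level and accessibility was -0.31 in females and -0.23 in males with RNA CPM not divided by length, -0.032 and 0.16 with ATAC CPM not divided by width, and -0.060 in females with EE libraries; the cause was not tested. For single members 869 values over 51 results were taken under the alternatives. These results were picked for the smallest p in the same data, so their signs were likely to hold. They do not describe members in general. Of the 869 values 4 changed sign, all of female promoter regions. Leaving out 1 library gave a range from -0.070 (without EE replicate 1) to 0.186 for Rpl6. The range was -0.062 (without SH replicate 1) to 0.216 for Rps4x. For Rps15a it was -0.136 (without SH replicate 2, and -0.087 without EE replicate 1) to 0.355. The smallest adjusted p of the 869 values was 0.235 (edgeR and the other tools). Few counts per member and DESeq2's missing adjusted p limit what a count of 0 shows.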
